A study of Homo sapiens with 6 samples.

Results

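Antisense noncoding RNAs are transcribed from the strand opposite another gene. The 256 antisense RNAs described here are the rows of the count table of class antisense that lie outside the X, Y and mitochondrial chromosomes and were selected on a mean raw count of at least 50 over the 6 libraries. They were drawn from 3096 antisense genes outside those chromosomes and from 29476 genes in all. The class is that of the count table. The newer annotation GENCODE 44 lists 235 of the 256 as long noncoding RNAs and 8 as protein-coding. It lists 2 as transcribed unprocessed pseudogenes and 2 as transcribed unitary pseudogenes, and 9 are not in it. Host genes of small RNAs whose symbols start with MIR or SNHG, and GAS5 and DLEU2, were left out by name, which removed SNHG12, DLEU2, SNHG7, SNHG10, SNHG21 and MIR762HG. The selection used the mean over both groups, so an RNA with few reads in one group could enter through the other. In 34 of the 256 the siCtrl mean was under 50 and the siDDX17 mean 50 or more, and in 6 it was the reverse. Just inside the limit lay KCTD21-AS1, RP1-198K11.5 and HOXD-AS2 with mean counts of 50.5, 50.8 and 50.7, and just outside lay RP11-49I11.1, TIPARP-AS1 and ZMIZ1-AS1 with 49, 48.7 and 48.3.

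The cells were A549, an established epithelial line from a human lung adenocarcinoma. In 3 libraries the cells had received a nontargeting control siRNA (siCtrl, whose genotype label reads control plasmid), and in 3 they had received an siRNA against DDX17 (siDDX17, labelled DDX17 knockdown), both delivered with a cationic lipid reagent. The question was which RNAs change when the level of DDX17, a DEAD-box RNA helicase, is reduced. All cultures shared the line, so the comparison describes 1 cell line and 1 targeting siRNA. Polyadenylated RNA was sequenced with a strand-specific protocol, and the libraries held 30658136 to 39182371 counted reads. DDX17 itself was at 177 to 206 counts scaled to the library size (CPM) in siCtrl and at 30.4 to 32.1 CPM in siDDX17, a log2 fold change of -2.60 (standard error 0.0685, edgeR adjusted p = 5.89e-11). DDX5, its closest relative, differed by -0.11 (adjusted p = 0.142 from the same edgeR test). KRT8, KRT18, AKR1B10, NQO1 and ALDH1A1, which are abundant in A549, lay between 831 and 2540 FPKM (a level scaled to gene length and library size). Of the other A549 markers listed, AKR1C1 was at 130 to 176 FPKM and the epithelial marker CDH1 at 2.91 to 3.35 FPKM. EPCAM was at 0.34 to 0.48 FPKM in siCtrl and 1.09 to 1.14 FPKM in siDDX17. The alveolar type 2 cell markers SFTPB, SFTPC, NKX2-1 and NAPSA were at 0.85 FPKM or less. The leukocyte, endothelial and fibroblast markers PTPRC, PECAM1, VWF and DCN were at 0.04 FPKM or less, while COL1A1, also a fibroblast marker, was at 0.37 to 0.48 FPKM and CD68, a macrophage marker, at 0.43 to 1.09 FPKM.

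An antisense RNA can overlap the exons of the gene on the other strand, lie in its introns, or start beside its promoter and run the other way. The last arrangement is called head to head or divergent, and newer annotations mark such RNAs with the suffix DT, for divergent transcript. RNAs of this kind are often nuclear and short-lived, and many are degraded by the nuclear exosome. DDX17 unwinds or remodels RNA and takes part in transcription, splicing and microRNA processing.

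Most of the antisense RNAs were expressed at a low level. Per length, their median level in siCtrl and siDDX17 together was 1.70 FPKM, with quartiles at 0.909 and 3.39 FPKM and a range from 0.0483 to 147 FPKM, and 20 of the 256 reached 10 FPKM. The 222 lincRNAs, which are noncoding RNAs that lie between genes, chosen by the same rule had a median of 1.87 FPKM, and the 11177 protein-coding genes had 5.12 FPKM. No antisense RNA was at 0 in any library, and the lowest count was 12. As a class they took 0.1845%, 0.1772% and 0.1748% of the counted reads in siCtrl 1, 2 and 3 and 0.1961%, 0.1968% and 0.1994% in siDDX17 1, 2 and 3. All 3 siDDX17 libraries were above all 3 siCtrl libraries in this share. The share is scaled by library size only, and with that scaling the median log2 fold change over all genes tested was also above 0, at 0.1276. It also includes the RNAs that entered through siDDX17. In bulk libraries, fewer cells with an RNA and less of it per cell cannot be told apart. The Pearson correlation of log2 CPM over the antisense RNAs was 0.961 to 0.975 between siCtrl libraries, 0.975 to 0.982 between siDDX17 libraries and 0.885 to 0.908 between the groups.

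After DDX17 knockdown, more antisense RNAs were higher than lower. Of the 256, all of which were tested, 80 (31.2%) rose and 34 (13.3%) fell at an adjusted p under 0.05 by the edgeR quasi-likelihood test, with Benjamini-Hochberg values over 15615 genes. Across all genes tested the shares were balanced, with 24.5% higher and 24.3% lower. With a log2 fold change of more than 1 in addition, hereafter called higher or called lower, 13 antisense RNAs (5.08%) were higher and 6 (2.34%) were lower, close to the shares of all genes, 4.65% and 2.92%. In CPM, 90 antisense RNAs (35.2%) had every siDDX17 library above every siCtrl library and 42 (16.4%) had every siDDX17 library below, against 28.8% and 27.7% of all genes tested. The median log2 fold change was 0.14 over the antisense RNAs and 0.01 over all genes tested. The lincRNAs had a median of 0.10 with 29.3% higher and 17.6% lower at the adjusted p limit, so they leaned the same way, while the protein-coding genes had -0.02 with 26.6% and 28.8%. These class values are descriptions without a test, since genes are not replicates. Without siCtrl 1, which correlated less with the other siCtrl libraries (0.961 and 0.971) than they did with each other (0.975), 89 antisense RNAs were higher and 38 lower, 18 and 6 were called, and the median was 0.12.

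The selection bears on these counts. Of the 34 that entered through siDDX17, 25 rose and 7 were called higher, and of the 6 that entered through siCtrl, 4 fell and 1 was called lower. CEBPA-AS1, for example, had counts of 24, 14 and 27 in siCtrl and 96, 100 and 101 in siDDX17, and AF131216.5 and RP11-713M15.2 had siCtrl counts of 12 to 30. Among the 216 with a mean of 50 or more in each group, a limit chosen after the data were seen, 55 (25.5%) were higher and 30 (13.9%) lower at the adjusted p limit, with a median of 0.11, and 6 were called higher and 5 lower. The same limit over all genes tested gave 25.5% higher and 28.7% lower, with 2.33% and 2.14% called. The share that was higher was therefore equal to that of all genes, and the share that was lower was smaller. The lean also differed by mean count. The 68 RNAs at 200 or more had a median of 0.0087, with 16 higher and 13 lower. The 69 at 100 to under 200 had 0.17, with 23 and 4, and the 119 at 50 to under 100 had 0.19, with 41 and 17. Of these 119, the 79 with a mean of 50 or more in each group had 0.04, with 20.3% higher and 16.5% lower.

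The antisense RNAs that were called higher mostly started next to the start of another gene. Of the 13, 11 lay head to head with a measured gene. That is, their canonical starts in GENCODE 44 (GRCh38) lay within 1000 bases of the start of a gene on the other strand. Of all the antisense RNAs, 137 (53.5%) lay head to head, and 8.03% of these were called higher, against 4.65% of all genes tested. Of the 11, 6 had a siCtrl mean under 50 and entered through siDDX17. Among the 113 head-to-head RNAs with a mean of 50 or more in each group, 5 (4.42%) were called higher. The share of all genes tested at that limit was 2.33%. The plot of CPM by library shows the 12 with the largest increases and the 6 called lower. In those 12, the 3 siDDX17 libraries were above the 3 siCtrl libraries without overlap.

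**Figure D1:**
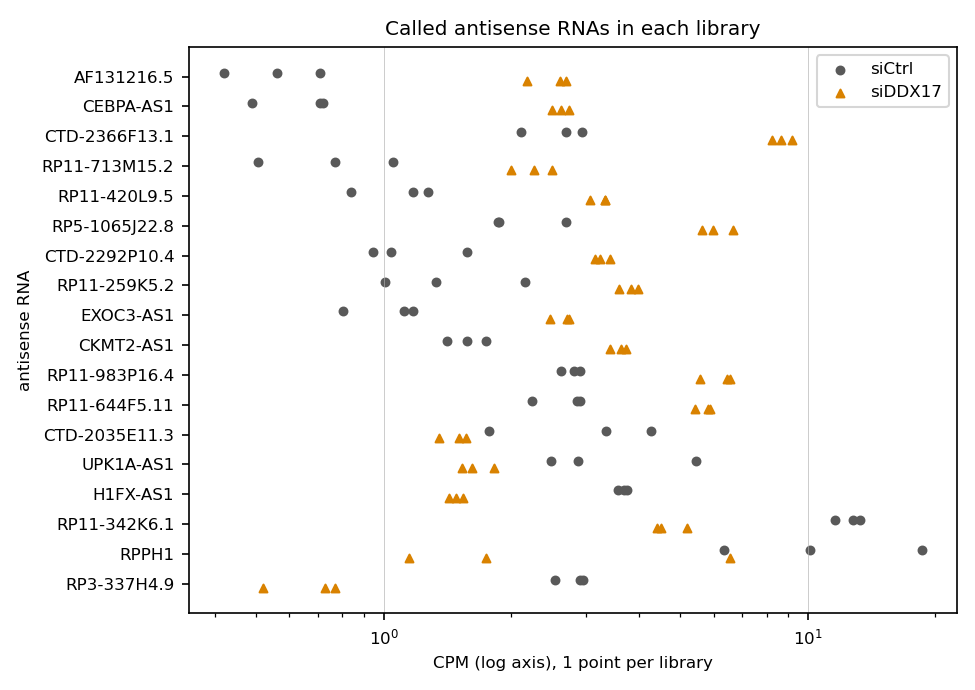
CPM (x axis, log scale) of the 12 antisense RNAs with the largest called increases and of the 6 called lower (y axis), with 1 point per library: circles are siCtrl and triangles are siDDX17. In every row except RPPH1 the 3 circles and the 3 triangles do not overlap, and RPPH1 spans 1.15 to 18.6 CPM.

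CEBPA-AS1 (ENSG00000267296.2, named CEBPA-DT in newer releases, plus strand of chromosome 19 from 33302857 to 33305054, 1 exon) starts 323 bases from CEBPA, which encodes a transcription factor of cell differentiation. Its CPM values were 0.709, 0.489 and 0.721 in the siCtrl libraries and 2.49, 2.74 and 2.62 in the siDDX17 libraries. The log2 fold change was 2.01 (standard error 0.200, edgeR adjusted p = 2.93e-06). CEBPA moved the other way, from 13.6, 15.8 and 16.0 CPM to 11.5, 12.8 and 11.8 CPM, and fell by 0.33 on the log2 scale (standard error 0.0886, edgeR adjusted p = 0.00730). The log2 ratio of CEBPA-AS1 to CEBPA was therefore higher by 2.29 in siDDX17, with no overlap between the groups and the smallest p that an exact permutation test of 3 against 3 allows, 0.1.

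CTD-2366F13.1 (ENSG00000247796.2, MOCS2-DT, plus strand of chromosome 5 from 53109816 to 53127673) has 4 exons and starts 103 bases from MOCS2, which encodes an enzyme of molybdenum cofactor synthesis. It was at 2.69, 2.94 and 2.11 CPM in siCtrl and at 8.22, 9.19 and 8.64 CPM in siDDX17, a log2 fold change of 1.76 (standard error 0.133, edgeR adjusted p = 2.36e-07). The groups were far apart compared with the spread within them. MOCS2 was at 43.3, 50.0 and 49.3 CPM in siCtrl and at 38.0, 33.8 and 34.9 CPM in siDDX17, and fell by 0.42 on the log2 scale (standard error 0.0724, edgeR adjusted p = 0.000344).

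EXOC3-AS1 (ENSG00000221990.4, minus strand of chromosome 5 from 441498 to 443160, 1 exon) starts 16 bases from EXOC3, which encodes a subunit of the exocyst, the complex that tethers secretory vesicles. Its level went from 1.12, 0.804 and 1.17 CPM in siCtrl to 2.70, 2.74 and 2.47 CPM in siDDX17, a log2 fold change of 1.33 (standard error 0.186, edgeR adjusted p = 6.02e-05). EXOC3 was at 43.0, 48.3 and 48.9 CPM against 40.1, 42.4 and 38.5 CPM and fell by 0.21 on the log2 scale (edgeR adjusted p = 0.0187). However, EXOC3 did not pass the adjusted p limit without siCtrl 2, siCtrl 3, siDDX17 1 or siDDX17 3 (highest edgeR adjusted p = 0.0999).

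In other head-to-head pairs the antisense RNA rose while no change of the gene beside it was detected. RP5-1065J22.8 (TMEM167B-DT) went from 1.86, 2.69 and 1.87 CPM to 5.63, 5.98 and 6.65 CPM, a log2 fold change of 1.52 (standard error 0.157, edgeR adjusted p = 3.92e-06), and TMEM167B differed by 0.24 (adjusted p = 0.0902). RP11-644F5.11 (CD63-AS1) went from 2.86, 2.90 and 2.24 CPM to 5.81, 5.43 and 5.87 CPM, a log2 fold change of 1.10 (standard error 0.135, edgeR adjusted p = 1.91e-05), and CD63, a tetraspanin of endosomes and exosomes measured at 464 to 532 CPM, differed by 0.05 (adjusted p = 0.532). CKMT2-AS1, which carries the name of CKMT2 but starts beside ZCCHC9, went from 1.74, 1.57 and 1.41 CPM to 3.42, 3.73 and 3.63 CPM, a log2 fold change of 1.19 (standard error 0.152, edgeR adjusted p = 2.64e-05), and ZCCHC9 differed by 0.0031 (adjusted p = 0.980). In these 3 pairs the antisense RNA was higher in every siDDX17 library, while the values of the gene across the start overlapped between the groups.

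The other RNAs called higher had similar sizes of change. RP11-420L9.5 beside PXDC1 rose by 1.55 on the log2 scale, RP11-713M15.2 beside SNTB1 by 1.57, CTD-2292P10.4 beside THEM6 by 1.48 and RP11-259K5.2 (GOLGA4-AS1) beside GOLGA4 by 1.34. Of these 4 genes across the start, SNTB1, which encodes a syntrophin, rose by 0.51 (edgeR adjusted p = 0.00190), and PXDC1, THEM6 and GOLGA4 had log2 fold changes of 0.18, 0.02 and 0.16 and did not pass. CTD-2292P10.4 has 42.9% of its exon bases covered by exons of LY6K on the other strand, and LY6K was called lower with -1.93, so this antisense RNA and its overlapping gene were called in opposite directions. RP11-983P16.4 (TNS2-AS1) lay otherwise, with 14.5% of its exon bases inside exons of EIF4B, a translation initiation factor, and rose by 1.16 while EIF4B rose by 0.27 (edgeR adjusted p = 0.00143). AF131216.5, with a log2 fold change of 2.12 from 0.420 to 0.709 CPM in siCtrl and 2.18 to 2.69 CPM in siDDX17, overlapped no measured gene. NUP153-AS1 (RP11-500C11.3), the 13th and smallest of the called increases, was at 1.08 and was named after its values were seen.

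Promoter sequences were available for some of the head-to-head RNAs called higher. In the windows of CEBPA-AS1, GOLGA4-AS1 and NUP153-AS1 the start of the opposite gene lay outside, and these are not shown. The closeness of the starts in the windows shown follows from their choice. The 3 windows below are RefSeq promoters (GRCh38.p14), from 250 bases before to 50 after the start of the antisense RNA, and are shown because the start of the opposite gene falls inside each of them and the antisense RNA was called higher. The MOCS2-DT window is chr5:53109592-53109891 on the plus strand, and MOCS2 starts 85 bases upstream of the antisense start. The CKMT2-AS1 window is chr5:81301520-81301819 on the minus strand, with the ZCCHC9 start 18 bases upstream, and the CD63-AS1 window is chr12:55728844-55729143 on the plus strand, with the CD63 start 85 bases upstream. Capitals mark matches on either strand to 4 motifs known from promoters, none of which contains another: the CCAAT box, the ETS site core CCGGAAG, the NRF1 site core GCATGCG and the TATA box TATAAA.
MOCS2-DT: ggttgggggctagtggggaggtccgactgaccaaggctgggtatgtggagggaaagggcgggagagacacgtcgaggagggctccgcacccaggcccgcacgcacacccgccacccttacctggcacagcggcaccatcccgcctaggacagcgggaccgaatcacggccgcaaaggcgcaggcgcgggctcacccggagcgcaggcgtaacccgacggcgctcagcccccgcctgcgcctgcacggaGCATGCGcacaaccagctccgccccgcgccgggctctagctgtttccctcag
CKMT2-AS1: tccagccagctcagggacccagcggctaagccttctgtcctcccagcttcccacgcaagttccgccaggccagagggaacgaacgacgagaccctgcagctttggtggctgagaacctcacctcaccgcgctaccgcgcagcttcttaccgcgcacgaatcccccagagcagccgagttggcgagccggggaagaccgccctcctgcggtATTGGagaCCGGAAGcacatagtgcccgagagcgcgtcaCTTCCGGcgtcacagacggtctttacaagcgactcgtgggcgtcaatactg
CD63-AS1: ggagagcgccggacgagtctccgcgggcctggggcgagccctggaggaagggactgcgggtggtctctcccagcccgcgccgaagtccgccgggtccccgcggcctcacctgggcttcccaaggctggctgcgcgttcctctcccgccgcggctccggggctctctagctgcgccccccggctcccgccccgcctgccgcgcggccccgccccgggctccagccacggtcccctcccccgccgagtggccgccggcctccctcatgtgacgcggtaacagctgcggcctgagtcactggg
The MOCS2-DT window held 1 match to GCATGCG, the CKMT2-AS1 window held 1 to CCAAT and 2 to CCGGAAG, and the CD63-AS1 window held none of the 4. RefSeq promoters were matched to 148 of the 256 antisense RNAs, of which 95 lay head to head. In those 95 the median content of G and C was 69.0%, against 58.3% in all 27305 promoters. CCGGAAG was in 17.9% of the head-to-head promoters and in 10.7% of all promoters, GCATGCG in 6.32% and 4.13%, and CCAAT in 31.6% and 35.7%. TATAAA was in 4.21% and 12%. The 37 head-to-head RNAs with a promoter that rose had CCGGAAG in 18.9% and a G and C content of 68.3%, and the 58 others had 17.2% and 69.3%. These shares are descriptions of letters and were not tested.

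Head-to-head RNAs made up 137 of the 256 (53.5%). Their starts were a median of 212 bases from the start of the other gene, and 96 pairs left a gap between the starts while 41 overlapped at the 5' ends. At the adjusted p limit 54 (39.4%) were higher and 14 (10.2%) lower, and the median log2 fold change was 0.22. Of the genes across the start, counted once for each pair, 21 (15.3%) were higher and 40 (29.2%) lower, with a median of -0.03. Both shares can be read against 24.5% and 24.3% of all genes tested. The protein-coding genes chosen by the same rule as the antisense RNAs had 26.6% higher and 28.8% lower, with a median of -0.02. The lower share and the median of the genes across the start were close to these. Of the head-to-head RNAs, 24 entered through siDDX17 alone and 18 of those rose. The 113 head-to-head RNAs with a mean of 50 or more in each group had 31.9% higher, 12.4% lower and a median of 0.16. The median of the RNAs was 0.24 where the starts were apart and 0.22 where they overlapped. Leaving out 1 library at a time gave medians from 0.19 to 0.26 with 44 to 59 RNAs higher and 9 to 15 lower, the lowest being 9 without siCtrl 2, siDDX17 2 or siDDX17 3. The 11 called higher became 1 with limma on log2(FPKM + 1) and 18 with scaling by library size only, and the 14 lower became 8 and 7.

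Within pairs, the antisense RNA rose and the other gene fell in 13, and in 0 pairs did the antisense RNA fall and the other gene rise. The totals bear on this contrast. Of the RNAs, 54 were higher and 14 lower, and of the other genes, 40 were lower and 21 higher. Whether partners moved in opposite directions more often than these totals give was not tested. Both rose in 9 and both fell in 5, the antisense RNA alone passed in 41, the other gene alone in 34, and neither in 35. Examples of the first kind are U47924.31, which rose by 0.71 while C12orf57 fell by 0.74 on the log2 scale, and RP11-452L6.5, which rose by 0.84 while ARMC5 fell by 0.53. They were named after their values were seen. C12orf57 was at 144, 150 and 141 CPM in siCtrl and at 82.2, 91.8 and 86.0 CPM in siDDX17. Over the 137 pairs Pearson's r of the log2 fold changes was 0.24 and Spearman's rho was 0.23, across genes in the same 6 libraries. The scatter of these pairs shows a wide horizontal spread, toward the right, and a narrower vertical one. The fold changes of the antisense RNAs mostly had larger standard errors than those of the genes across the start. In addition, 24 of the 137 RNAs entered through siDDX17 alone. The 2 spreads can therefore not be read as sizes of response, and what they reflect was not tested.

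**Figure D2:**
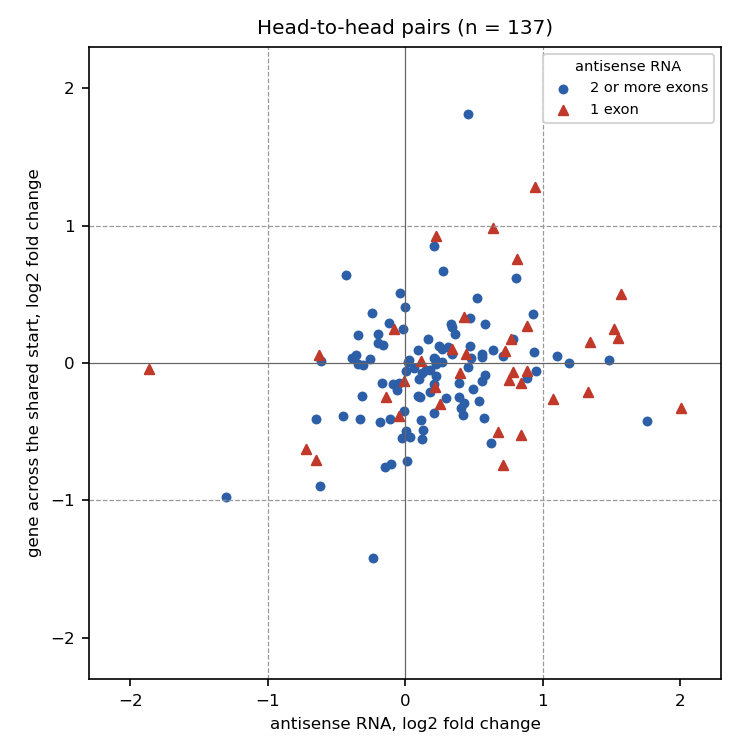
Log2 fold change of the antisense RNA (x axis) against that of the gene across the shared start (y axis) for 137 head-to-head pairs, with triangles for antisense RNAs of 1 exon and circles for those with 2 or more. To the right of 1 lie the 11 antisense RNAs called higher, with partners between -0.42 and 0.51.

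The head-to-head RNAs with the largest share of increases were those of 1 exon. Exon number was examined after the values were seen. The 36 whose canonical transcript has 1 exon had a median log2 fold change of 0.69. Of these, 22 (61.1%) were higher, 4 (11.1%) were lower and 7 (19.4%) were called higher. Over all genes tested 24.5% were higher, 24.3% were lower and 4.65% were called higher. With limma on log2(FPKM + 1), which compresses low values, the median was 0.41 and 0 were called higher. Of the 36, 12 entered through siDDX17 alone, and of these 11 rose and 5 were called higher. The 24 with a mean of 50 or more in each group had a median of 0.37, with 45.8% higher and 16.7% lower. Of these 24, 2 were called higher and 1 lower. The same limit over all genes tested gave 25.5% higher and 28.7% lower, with 2.33% and 2.14% called. With 2 exons (42 RNAs) the median was 0.16, with 31.0% higher and 14.3% lower, and with 3 or more exons (59 RNAs) it was 0.21, with 32.2% and 6.78%. Among RNAs in other places, the 19 with 1 exon had a median of 0.03 and 26.3% higher. Leaving out 1 library at a time gave medians from 0.65 to 0.73 for the head-to-head RNAs of 1 exon, with 20 to 24 of the 36 higher. Of the 59 lincRNAs that lie head to head by the same measure, 33.9% were higher and 11.9% lower with a median of 0.18, and the 11 of them with 1 exon had a median of 0.10, with 45.5% higher and 18.2% lower. LPP-AS2, beside LPP and named after its values were seen, is an RNA of 1 exon that came close to the fold limit. It went from 1.95, 2.03 and 1.63 CPM in siCtrl to 3.50, 4.06 and 3.19 CPM in siDDX17 and rose by 0.95 (standard error 0.160, edgeR adjusted p = 0.000282). LPP, a focal adhesion protein, rose by 1.28 (edgeR adjusted p = 1.32e-07) from 14.9 to 19.6 CPM in siCtrl to 39.9 to 44 CPM, so this pair rose together.

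**Figure D3:**
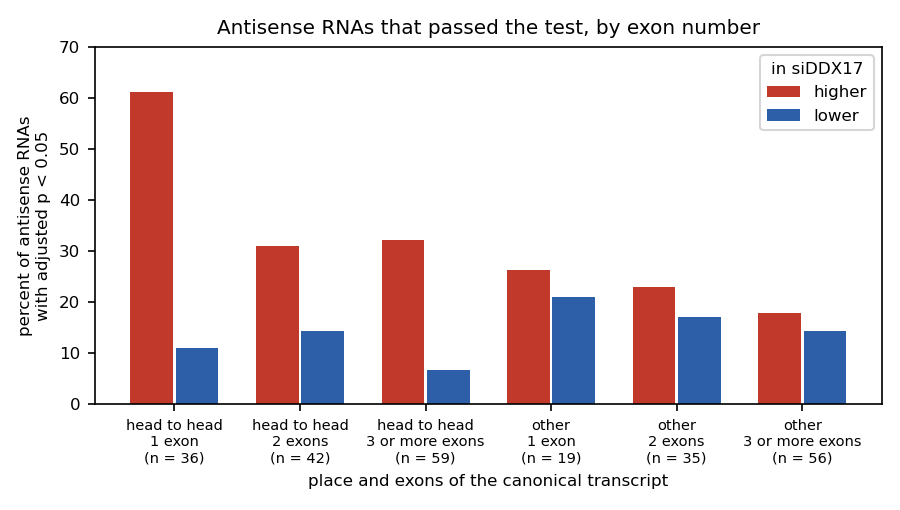
Percent of antisense RNAs with an adjusted p under 0.05 (y axis, from 0) by place and number of exons in the canonical transcript (x axis), with red bars for RNAs higher and blue bars for RNAs lower in siDDX17. The head-to-head RNAs of 1 exon stand at 61.1% higher and 11.1% lower, and the other 5 groups lie between 17.9% and 32.2% higher.

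The antisense RNAs in other places differed among themselves. Over all genes tested 24.5% were higher and 24.3% lower at the adjusted p limit. The 69 that overlap exons of a measured gene without a shared start had a median log2 fold change of 0.0088. Of these, 14 (20.3%) were higher and 10 (14.5%) lower. The 28 with no measured gene on the other strand had a median of 0.13, with 8 (28.6%) higher and 2 (7.14%) lower. The 2 that meet a gene tail to tail passed in neither direction, and 9 members are not in GENCODE 44. The 11 that lie within introns of another gene were mostly lower, with a median of -0.53, 6 (54.5%) lower and 1 (9.09%) higher. The genes around them had a median of 0.22. This small group rests on few RNAs, and its median was -0.33 without siCtrl 1 and -0.13 with limma on log2(FPKM + 1). The plot by place shows these 4 larger groups.

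**Figure D4:**
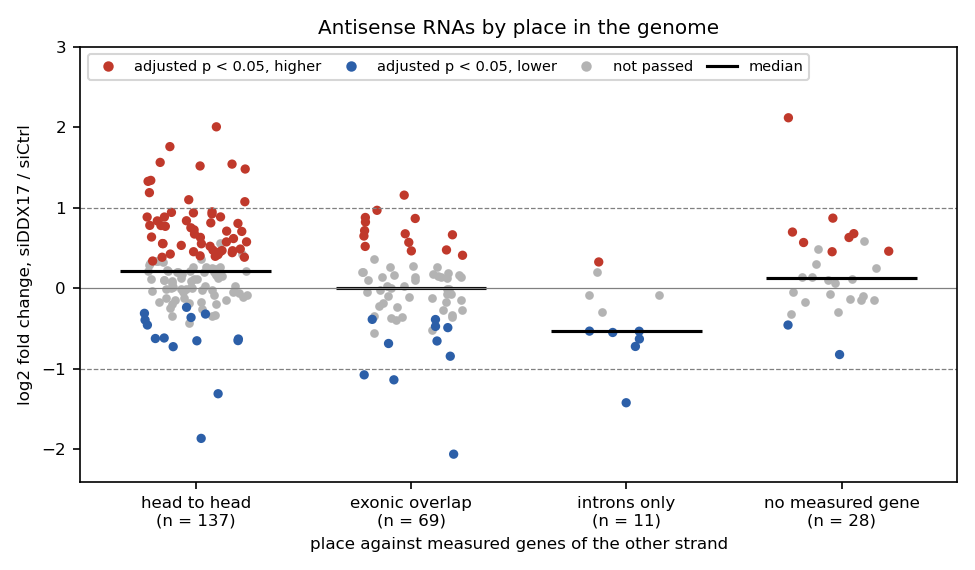
Log2 fold change of siDDX17 against siCtrl (y axis) for antisense RNAs by their place against measured genes of the other strand (x axis), with 1 point per RNA, red or blue where the adjusted p was under 0.05, black lines for medians and dashed lines at 1 and -1. The medians are 0.22 for 137 head-to-head RNAs, 0.0088 for 69 with exonic overlap, -0.53 for 11 in introns and 0.13 for 28 with no measured gene.

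RP11-342K6.1 (ENSG00000270696.1, plus strand of chromosome 2 from 75660462 to 75662208, 1 exon) lies in an intron of GCFC2 and was the most reduced of the intronic RNAs. It was at 12.8, 11.6 and 13.3 CPM in siCtrl and at 5.19, 4.50 and 4.41 CPM in siDDX17, and fell by 1.42 on the log2 scale (standard error 0.103, edgeR adjusted p = 1.72e-07). The groups did not overlap. GCFC2 rose by 0.23 (edgeR adjusted p = 0.0191), from 21.3 to 22.9 CPM in siCtrl to 24.4 to 27.5 CPM in siDDX17. GCFC2 did not pass the adjusted p limit in at least 1 fit that left out a library (highest edgeR adjusted p = 0.102).

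The other 5 RNAs called lower differed in how firm the values were. RP3-337H4.9 (minus strand of chromosome 6 from 43519180 to 43519724, 1 exon) went from 2.54, 2.90 and 2.96 CPM to 0.726, 0.768 and 0.519 CPM and fell by 2.06 on the log2 scale (standard error 0.200, edgeR adjusted p = 2.38e-06). Exons of POLR1C, a subunit of RNA polymerases I and III, cover 71.9% of it, and POLR1C fell by 0.50 (edgeR adjusted p = 9.02e-05). RPPH1, the RNA subunit of RNase P, which has no poly(A) tail and starts beside PARP2, was at 10.1, 18.6 and 6.35 CPM in siCtrl and at 1.74, 1.15 and 6.57 CPM in siDDX17. Its siDDX17 3 value was inside the siCtrl range, and its log2 fold change of -1.86 had a standard error of 0.477 (edgeR adjusted p = 0.00550). With 1 library left out at a time the fold change of RPPH1 on this scale ranged from -2.99, without siDDX17 3, to -1.37, without siCtrl 2. UPK1A-AS1 was at 2.48, 2.87 and 5.44 CPM against 1.82, 1.62 and 1.53 CPM, a log2 fold change of -1.13, and with 1 library left out at a time this ranged from -1.37 to -0.69. CTD-2035E11.3, at 1.77, 4.27 and 3.34 CPM against 1.35, 1.51 and 1.56 CPM, had -1.07 and ranged from -1.37 to -0.81.

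H1FX-AS1 and its sense gene fell together. H1FX-AS1 (ENSG00000206417.8, plus strand of chromosome 3 from 129315392 to 129326225) was at 3.75, 3.57 and 3.68 CPM in siCtrl and at 1.48, 1.54 and 1.43 CPM in siDDX17, and fell by 1.31 on the log2 scale (standard error 0.145, edgeR adjusted p = 7.84e-06). H1FX, which encodes a linker histone, was at 174, 169 and 169 CPM and at 84.0, 91.4 and 84.6 CPM, and fell by 0.98 (standard error 0.0563, edgeR adjusted p = 2.28e-08). The log2 ratio of the pair was lower by 0.30 in siDDX17 (exact permutation p = 0.1, the smallest that 3 against 3 allows).

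The symbols or descriptions of 108 antisense RNAs name a partner, and 87 of these partners were tested. Of the 87 partners 8 were called higher and 2 lower, and at the adjusted p limit 16 (18.4%) were higher and 21 (24.1%) lower, where all genes tested had 4.65% and 2.92% called and 24.5% and 24.3% past the adjusted p limit. In 0 of the 87 pairs were both called, in 4 the antisense RNA alone and in 10 the partner alone. At the adjusted p limit both rose in 7 pairs, both fell in 6, the antisense RNA rose and the partner fell in 4, and the reverse was found in 2. Those 2 pairs were MMP24-AS1 with MMP24 and SVIL-AS1 with SVIL. Over the 87 pairs Pearson's r of the log2 fold changes was 0.19 and Spearman's rho was 0.27.

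Of the 10 pairs in which the partner alone was called, the antisense RNA passed in the direction of its partner in 4, passed against it in 2 and did not pass in 4. ATP6V0E2, a subunit of the vacuolar proton pump, was at 83.9, 87.4 and 81.9 CPM in siCtrl and at 16.0, 16.7 and 16.1 CPM in siDDX17, and fell by 2.37 on the log2 scale (standard error 0.0602, edgeR adjusted p = 5.89e-11). ATP6V0E2-AS1 was at 2.63, 2.17 and 1.09 CPM and at 1.95, 2.22 and 2.47 CPM, a log2 fold change of 0.19 (adjusted p = 0.568). The sense gene was lower in every siDDX17 library, and the antisense values overlapped between the groups. SVIL, which encodes the actin-binding protein supervillin, went from 18.1, 16.6 and 18.3 CPM to 53.6, 57.5 and 55.5 CPM and rose by 1.65 (standard error 0.0666, edgeR adjusted p = 1.20e-09). SVIL-AS1, which GENCODE 44 lists as a transcribed unprocessed pseudogene, went from 20.1, 19.9 and 20.8 CPM to 15.7, 13.9 and 14.7 CPM. It fell by 0.45 (standard error 0.0759, edgeR adjusted p = 0.000263). These pairs, apart from MMP24-AS1, were named after their values were seen.

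MMP24, a membrane-bound matrix metalloproteinase, rose by 1.89 on the log2 scale (standard error 0.0625, edgeR adjusted p = 3.00e-10), from 16.7, 16.4 and 16.6 CPM to 60.5, 63.9 and 59.6 CPM. MMP24-AS1 fell by 0.47 (standard error 0.0566, edgeR adjusted p = 1.59e-05), from 66.4, 64.4 and 62.8 CPM to 48.1, 46.6 and 45.0 CPM. The log2 ratio of the antisense RNA to MMP24 was lower by 2.36 in siDDX17. RP4-614O4.11, on the same strand and overlapping the 5' start of MMP24-AS1, fell by 0.53 (standard error 0.0542, edgeR adjusted p = 3.66e-06). Both RNAs are annotated as protein-coding in GENCODE 44, and reads of the shared stretch cannot be told apart between them.

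Of the 8 antisense RNAs with the highest mean CPM, 2 fell, 1 rose and 5 did not pass. In siCtrl, RP4-614O4.11 had the highest level per length of the 8, 167 FPKM in all siCtrl libraries and 124 to 129 FPKM in siDDX17. ZFAS1, a small nucleolar RNA host on the strand opposite ZNFX1, was at 118 to 126 FPKM in siCtrl and 126 to 133 FPKM in siDDX17, and its log2 fold change on counts was -0.04 (adjusted p = 0.592). ZNFX1, an RNA helicase, rose by 0.51 (edgeR adjusted p = 0.000210). PINK1-AS, FGD5-AS1, RP11-282O18.3 and RP5-940J5.9 had log2 fold changes from -0.12 to -0.07 and did not pass, and these 4 and ZFAS1 changed sign with scaling by library size only. TUG1, which GENCODE 44 lists as protein-coding and which starts beside MORC2, rose by 0.41 (standard error 0.0638, edgeR adjusted p = 0.000159), from 31.5, 32.8 and 31.9 CPM to 44.5, 39.9 and 42.9 CPM.

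Of a list of 40 antisense RNAs with a described function or a name in the literature, 22 were among the 256. Of the 22, 5 rose and 2 fell at the adjusted p limit, 0 were called higher and 1, H1FX-AS1, was called lower, and the median log2 fold change was 0.03. Over all genes tested 24.5% were higher and 24.3% lower at that limit, and 4.65% and 2.92% were called. GAS6-AS1 rose by 0.57 (edgeR adjusted p = 0.0280), from 1.24, 1.19 and 1.17 CPM to 2.10, 1.81 and 1.45 CPM, and GAS6, a ligand of the TAM receptor kinases, rose by 0.78 (edgeR adjusted p = 0.00142). GAS6-AS1 did not pass the adjusted p limit without siCtrl 2, siCtrl 3, siDDX17 1 or siDDX17 2 (highest edgeR adjusted p = 0.133). BACE1-AS, which overlaps the mRNA of the beta-secretase BACE1, went from 1.83, 1.96 and 2.03 CPM to 2.78, 2.41 and 3.17 CPM. It rose by 0.52 (standard error 0.161, edgeR adjusted p = 0.0158) and did not pass the adjusted p limit without siDDX17 3 (edgeR adjusted p = 0.0877). BACE1 went from 5.02, 4.86 and 5.10 CPM to 15.3, 14.8 and 15.4 CPM and rose by 1.60 (standard error 0.0872, edgeR adjusted p = 1.46e-08). Both members of this pair were higher in all siDDX17 libraries, and the antisense to sense ratio was lower by 1.09 on the log2 scale. GABPB1-AS1 rose by 0.56 (edgeR adjusted p = 0.000741) and SBF2-AS1 by 0.41 (edgeR adjusted p = 0.00827), while their partners GABPB1 and SBF2 had 0.06 and 0.16 and did not pass.

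TMPO-AS1 fell by 0.45 (edgeR adjusted p = 0.0279), and TMPO, which encodes lamina-associated polypeptides, fell by 0.38 (edgeR adjusted p = 0.000154). TMPO-AS1 did not pass the adjusted p limit without siCtrl 2, siCtrl 3, siDDX17 2 or siDDX17 3 (highest edgeR adjusted p = 0.101). KCNQ1OT1, the imprinted antisense RNA in KCNQ1, was at 3.90, 4.58 and 4.78 CPM in siCtrl and at 5.37, 4.53 and 4.39 CPM in siDDX17, a log2 fold change of 0.11 (adjusted p = 0.527). KCNQ1 itself was at 0.0295, 0.105 and 0.133 CPM in siCtrl and at 0.285, 0.466 and 0.467 CPM in siDDX17, so its called increase of 2.13 (standard error 0.497, edgeR adjusted p = 0.00303) rests on few reads. The HOX cluster RNAs HOTAIRM1, HOXA-AS2 and HOXB-AS1 had log2 fold changes of -0.20, -0.09 and 0.27 and did not pass. PXN-AS1 had -0.35 (edgeR adjusted p = 0.0506) beside PXN, the focal adhesion protein paxillin, which fell by 0.57 (edgeR adjusted p = 4.75e-06). In the plot of the listed RNAs, 18 of the 22 lie within 0.5 of 0.

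**Figure D5:**
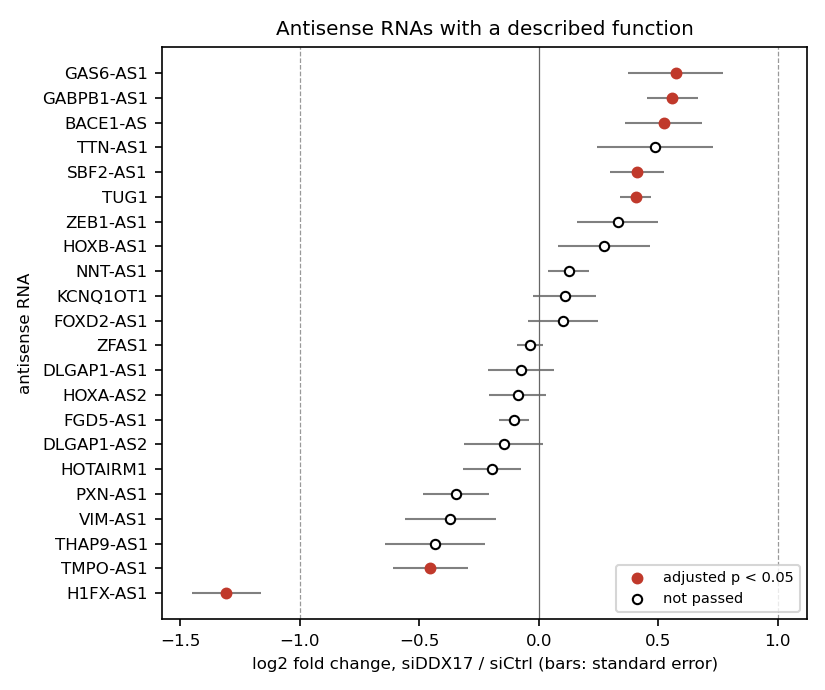
Log2 fold change of siDDX17 against siCtrl (x axis) with its standard error (bars) for the 22 listed antisense RNAs (y axis), filled where the adjusted p was under 0.05, with dashed lines at 1 and -1. Among these 22, H1FX-AS1 at -1.31 is the point outside the dashed lines, and GAS6-AS1 at 0.57 is the highest.

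The libraries kept strand, but whether strand was used in counting is not given in the sources used here. If it was not, an antisense RNA inside exons of a strongly expressed gene could carry that gene's reads. How reads overlapping both genes were treated is not given either. Of 28 antisense genes with at least 90% of their exon bases covered by exons of a measured gene at 50 FPKM or more, all 28 were under 10% of the level of that gene, with a median of 0.492%. With the limit at 10 FPKM it was 101 of 103. Of the 28, 4 are among the antisense RNAs described here, and of the 103, 7 are. These low levels cannot show whether strand was used, because reads overlapping both genes may have been left out of the counts. RP5-940J5.9 lies wholly within exons of GAPDH and was at 78.8 to 104 FPKM. Among the 247 antisense RNAs in the annotation, 73 share no exon bases with a measured gene of the other strand, 145 share under 50%, 29 share 50% or more, and 7 of those share 90% or more. Of the 7, RP11-474G23.2 within PPP3R1 fell by 0.68 (edgeR adjusted p = 0.0107) and 6 did not pass. Members with a near-identical copy, such as NUTM2A-AS1 and NUTM2B-AS1, could share reads.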

How the data were processed

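RNA-seq of A549 cells with 3 siCtrl and 3 siDDX17 libraries was used. The submitters' processing notes name bcl2fastq, TopHat2, edgeR and the build GRCh38, with no versions, and the paper describes strand-specific libraries of polyadenylated RNA from 3 biological replicates per group. The deposited counts are the authors' raw read counts per gene for each library. The deposited FPKM values were scaled by the authors to gene length and to library size, with 2 decimals. The counting program, the annotation release and the use of strand are not given in the sources used here.

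Counts were fitted with edgeR 4.0.16 in R 4.3.3 (TMM scaling, filterByExpr, quasi-likelihood test, group as the only factor), and p-values were adjusted by Benjamini-Hochberg over 15615 of 29476 genes. Fold changes are siDDX17 against siCtrl. Positions, exons and canonical starts come from GENCODE 44 on GRCh38, which need not be the authors' release, and promoters from RefSeq. DESeq2 1.42.0 and limma 3.58.1 on log2(FPKM + 1) and log2(FPKM + 0.1) were alternatives. The fit was tested on simulated data. The members, the gene lists and the place classes were chosen with earlier results of these data known. Named RNAs are up to 12 called in each direction, the 8 with the highest CPM, the listed RNAs, the members nearest the limit, and partners. Other RNAs were named with their values known, and most are marked so.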

Additional observations from a re-analysis of the deposited data

How the results depend on the processing

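Most results kept their direction and their side of the threshold. For the main counts and medians, 107 values under other settings stayed within the limits set for them (1.5 times for a count) and 24 moved. With scaling by library size only, 23 antisense RNAs were called higher, 22 were lower at the adjusted p limit, and the median log2 fold change was 0.2648 beside 0.1276 for all genes, a shift of the centre of the scale. That median was 0.2559 with limma on log2(FPKM + 0.1), where all genes had 0.1235, and 0.1731 with upper quartile scaling. With limma on log2(FPKM + 1), which compresses low values, 2 antisense RNAs were called higher and 3 lower, and 2 and 1 partners. A mean count of 100 or more gave 5 called higher, 2 called lower, 39 higher and 17 lower at the adjusted p limit and a median of 0.1079, and a mean of 25 or more gave 29 and 10 called, in part because other numbers of RNAs were counted. A mean of 50 or more in each group, added after the data were seen, gave 6 called higher and a median of 0.1052. At p under 0.01 and a fold change of 1.5, the study's limits, 46 and 18 antisense RNAs and 7 lower partners were called. For these counts, and for those with library size only or limma, the shares of all genes tested are not given here. They cannot be read as more or fewer than among all genes. By position rather than name, 1 pair had both members called, CTD-2292P10.4 and LY6K. Leaving out 1 library at a time gave 0 to 2 pairs by name with both called: H1FX-AS1 with H1FX without siDDX17 2, and UPK1A-AS1 with UPK1A and LPP-AS2 with LPP without siDDX17 3. The cause of these changes was not tested.

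The settings for the place groups and for pairs without single libraries were added after the data were seen. The median of RNAs in places other than head to head lay near 0 and changed sign, to 0.012 with at least 10 counts in every library, 0.1217 with library size only, 0.1185 and 0.0794 with limma on log2(FPKM + 0.1) and log2(FPKM + 1), 0.03 with upper quartile scaling, and ranged from -0.0277 to 0.0381 with 1 library left out at a time. Of 974 values for 65 named genes, 36 for 12 genes changed sign, all near 0. With library size only, limma on log2(FPKM + 0.1) and limma on log2(FPKM + 1), in that order, these were 0.0859, 0.0919 and 0.0913 for ZFAS1, 0.0501, 0.0549 and 0.0519 for PINK1-AS, 0.0193, 0.0233 and 0.0219 for FGD5-AS1, 0.0073, 0.0131 and 0.0128 for RP11-282O18.3, 0.0005, 0.0039 and 0.0039 for RP5-940J5.9, 0.0335, 0.0301 and 0.0201 for HOXA-AS2, 0.0504, 0.0481 and 0.0376 for DLGAP1-AS1, 0.118, 0.1232 and 0.1153 for PINK1, and 0.0138, 0.0187 and 0.0186 for DDX5. PINK1 was at 0.0073 with at least 10 counts in every library and 0.0251 with upper quartile scaling. With 1 library left out at a time the range was -0.1754 to 0.0533 for DLGAP1-AS1, -0.3091 to 0.0166 for DLGAP1-AS2, -0.0588 to 0.0319 for PINK1, -0.3269 to 0.0097 for FOXD2 and -0.0193 to 0.1197 for GABPB1.

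Libraries with the same number did not deviate together (r = 0.00698, 0.0407 and -0.0564), so the numbers were not taken as pairs. With the replicate block the median was 0.1487 over all antisense RNAs, 0.2262 over those head to head and 0.0038 over the rest.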
